A study of Caenorhabditis elegans with 2 samples.

Results

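The genes described here encode heat shock proteins and J-domain proteins of Caenorhabditis elegans. They are the 51 protein-coding genes of the Ensembl WBcel235 annotation whose symbol begins with hsp- (22 genes) or dnj- (29 genes), out of 19973 protein-coding genes on the nuclear chromosomes. At each of them the binding of HMG-20, which binds DNA through an HMG box, was read from chromatin immunoprecipitation sequencing. In mammals, relatives of HMG-20 are found with the demethylase LSD1 and the corepressor CoREST.

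All worms were of strain RW12240, in which CRISPR had added a TY1, EGFP and 3xFLAG tag to the endogenous hmg-20 gene on chromosome I (allele st12240). Larvae had been synchronised by bleaching and starvation at the first larval stage, and whole young adults were taken at 64 hours. An antibody to GFP recovered the chromatin, in 2 biological replicates of 1 group. No heat shock or other treatment is named, and neither an untagged strain nor the control library was analysed here. Whole animals were used, so each signal is a mean over all tissues and cells of many worms. Depth is unknown, because the deposited peak lists hold no read totals.

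Heat shock proteins are chaperones that hold or refold other proteins, and J-domain proteins hand clients to Hsp70 and start its ATP hydrolysis. Some are made at all times, such as the Hsp70 and Hsp90 of the cytosol. Others are nearly silent until heat activates the transcription factor HSF-1, which binds heat shock elements, arrays of the unit nGAAn in alternating orientation. Unfolded proteins in the endoplasmic reticulum or in mitochondria raise a further group through their own signalling pathways. From this textbook knowledge the hsp- genes were split into 5 constitutive genes, 3 organelle-stress genes, 7 heat-inducible genes and 7 other small heat shock protein genes. Some of the constitutive genes rise further with heat, and the 29 dnj- genes were kept as a class of their own.

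A gene was scored by regions whose summit lay from 1000 bp upstream to 200 bp downstream of a transcript's 5' end. The ranked list held 59096 nuclear regions, and the conservative list held 979. Its lowest scaled score was 830, an irreproducible discovery rate (IDR) of 0.01, and 1066 ranked regions reached that score. Where several regions fell in a window, the one with the highest pooled signal scored the gene. Signal is the authors' peak height, whose scale is not stated. The ranked list also gives the signal of each replicate, without naming which replicate is in which column, so the values are called first and second below. These values are on a lower scale than the pooled signal.

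The sequences shown are the called regions of 7 members in order of signal, whether or not they hold a heat shock element, so that they can be read against the promoter of a heat-inducible pair below the threshold and a called inducible pair. They were read from the WBcel235 genome of RefSeq, 5' to 3', on the strand of the gene or on the plus strand for gene pairs. Capitals mark the fixed bases of each GAANNTTC or TTCNNGAA, which are 2 units of a heat shock element and read the same on both strands.
hsp-90 region, plus strand, chrV:14685633-14685888: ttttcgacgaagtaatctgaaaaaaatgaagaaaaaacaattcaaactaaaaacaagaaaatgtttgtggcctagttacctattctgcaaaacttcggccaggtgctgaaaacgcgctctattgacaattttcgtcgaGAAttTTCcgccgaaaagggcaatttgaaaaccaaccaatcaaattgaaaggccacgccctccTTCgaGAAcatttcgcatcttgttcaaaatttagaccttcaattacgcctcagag
hsp-60 region, plus strand, chrIII:1619009-1619264: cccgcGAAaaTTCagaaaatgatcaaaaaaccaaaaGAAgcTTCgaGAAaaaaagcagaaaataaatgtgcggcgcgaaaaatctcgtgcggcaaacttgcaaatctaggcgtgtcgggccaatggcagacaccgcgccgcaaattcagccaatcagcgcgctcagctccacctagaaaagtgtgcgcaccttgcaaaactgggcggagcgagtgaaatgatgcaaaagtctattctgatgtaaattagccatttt
dnj-19 region, minus strand, chrV:5505108-5505363: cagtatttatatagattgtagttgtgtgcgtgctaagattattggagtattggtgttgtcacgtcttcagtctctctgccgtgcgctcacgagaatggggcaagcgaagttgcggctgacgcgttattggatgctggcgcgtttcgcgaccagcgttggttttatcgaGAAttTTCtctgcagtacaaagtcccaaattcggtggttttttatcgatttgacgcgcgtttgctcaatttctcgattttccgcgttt
dnj-9 region, plus strand, chrII:4851719-4851974: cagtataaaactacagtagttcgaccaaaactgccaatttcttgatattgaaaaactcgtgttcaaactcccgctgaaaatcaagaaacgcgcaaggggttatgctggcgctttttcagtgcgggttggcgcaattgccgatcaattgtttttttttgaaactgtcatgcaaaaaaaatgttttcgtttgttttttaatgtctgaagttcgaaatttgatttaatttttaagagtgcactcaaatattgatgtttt
dnj-13 region, plus strand, chrII:11545370-11545625: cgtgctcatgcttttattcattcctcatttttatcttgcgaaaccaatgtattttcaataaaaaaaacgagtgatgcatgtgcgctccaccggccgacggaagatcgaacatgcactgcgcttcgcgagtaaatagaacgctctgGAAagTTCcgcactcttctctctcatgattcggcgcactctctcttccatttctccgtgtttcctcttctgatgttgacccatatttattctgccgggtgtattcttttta
hsp-110 region, minus strand, chrIII:8447045-8447300: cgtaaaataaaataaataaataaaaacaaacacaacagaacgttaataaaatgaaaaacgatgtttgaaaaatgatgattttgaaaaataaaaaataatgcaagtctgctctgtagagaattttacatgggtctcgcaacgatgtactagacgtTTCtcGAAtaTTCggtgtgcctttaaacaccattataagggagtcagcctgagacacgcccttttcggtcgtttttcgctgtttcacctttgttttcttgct
hsp-3 region, minus strand, chrX:6092012-6092267: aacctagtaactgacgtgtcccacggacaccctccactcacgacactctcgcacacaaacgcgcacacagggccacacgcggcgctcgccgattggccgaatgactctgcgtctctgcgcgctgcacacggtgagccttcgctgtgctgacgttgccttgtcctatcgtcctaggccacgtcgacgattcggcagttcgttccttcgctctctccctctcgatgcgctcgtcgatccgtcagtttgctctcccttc
hsp-16.2 and hsp-16.41 intergenic, plus strand, chrV:1804958-1805177: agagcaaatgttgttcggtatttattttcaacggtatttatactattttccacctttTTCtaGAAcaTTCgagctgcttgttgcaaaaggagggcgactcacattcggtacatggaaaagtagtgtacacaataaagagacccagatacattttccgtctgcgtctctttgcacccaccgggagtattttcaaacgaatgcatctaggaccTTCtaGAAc
F44E5.4 and F44E5.5 region, plus strand, chrII:11759361-11759616: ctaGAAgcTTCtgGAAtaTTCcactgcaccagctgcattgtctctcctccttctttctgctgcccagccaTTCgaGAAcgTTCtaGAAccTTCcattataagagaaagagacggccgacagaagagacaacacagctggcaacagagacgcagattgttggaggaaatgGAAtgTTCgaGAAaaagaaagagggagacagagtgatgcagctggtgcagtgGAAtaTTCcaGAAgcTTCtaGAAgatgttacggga
The hsp-90 region held 2 such matches, neither of them part of a run of 3. Those of hsp-60 and hsp-110 each held 1 run of 3 units, and the other 5 printed regions of members held 0. The regions of dnj-9 and hsp-3 held no match of 2 units either. Between F44E5.4 and F44E5.5, a pair of heat-inducible Hsp70 genes that carry no hsp- symbol, the region held 9 matches of 3 units, many of them overlapping.

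HMG-20 was called at 8 of the 51 genes. In order of pooled signal these were hsp-90, hsp-60, dnj-19, dnj-9, dnj-13, hsp-110, hsp-3 and dnj-14, or 15.7% of the members, against 3.13% of all protein-coding genes in the conservative list. The 3 classes with a call were the constitutive genes (3 of 5), the organelle-stress genes (1 of 3) and the J-domain genes (4 of 29). Neither the heat-inducible genes (0 of 7) nor the other small heat shock protein genes (0 of 7) had a region in that list. These shares are descriptions over genes with no test, and with 2 replicates of 1 group a sign permutation over samples cannot give a two-sided p below 0.5.

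Any ranked region, whatever its score, lay in the window of 35 members, against 54.6% of all protein-coding genes. The other 16 had none, and these were hsp-16.48, hsp-16.49, hsp-70, hsp-12.1, hsp-12.2, hsp-12.3, hsp-12.6, dnj-5, dnj-17, dnj-21, dnj-25, dnj-26, dnj-27, dnj-28, dnj-29 and dnj-30. Among the 35, the strongest region had a median pooled signal of 35.6, with quartiles of 25.2 and 58.4, against 26.97 with quartiles of 20.7 and 35.6 over the 10906 protein-coding genes with a region. The 8 called genes ran from 73.5 to 175.4, and the 27 genes with a region below the list ran from 14.2 to 63.9. Call and signal come from the same peaks, so this gap is no separate support for the calls. It did not hold among the other chaperone genes described below, where sti-1 was called at 55.5 and ahsa-1 was not at 57.7. Above the upper quartile of all genes with a region lay 17 of the 35, against 25% by construction. A score of 830 in the ranked list itself, without the conservative list, also called 8 members (3.14% of all protein-coding genes).

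**Figure D1:**
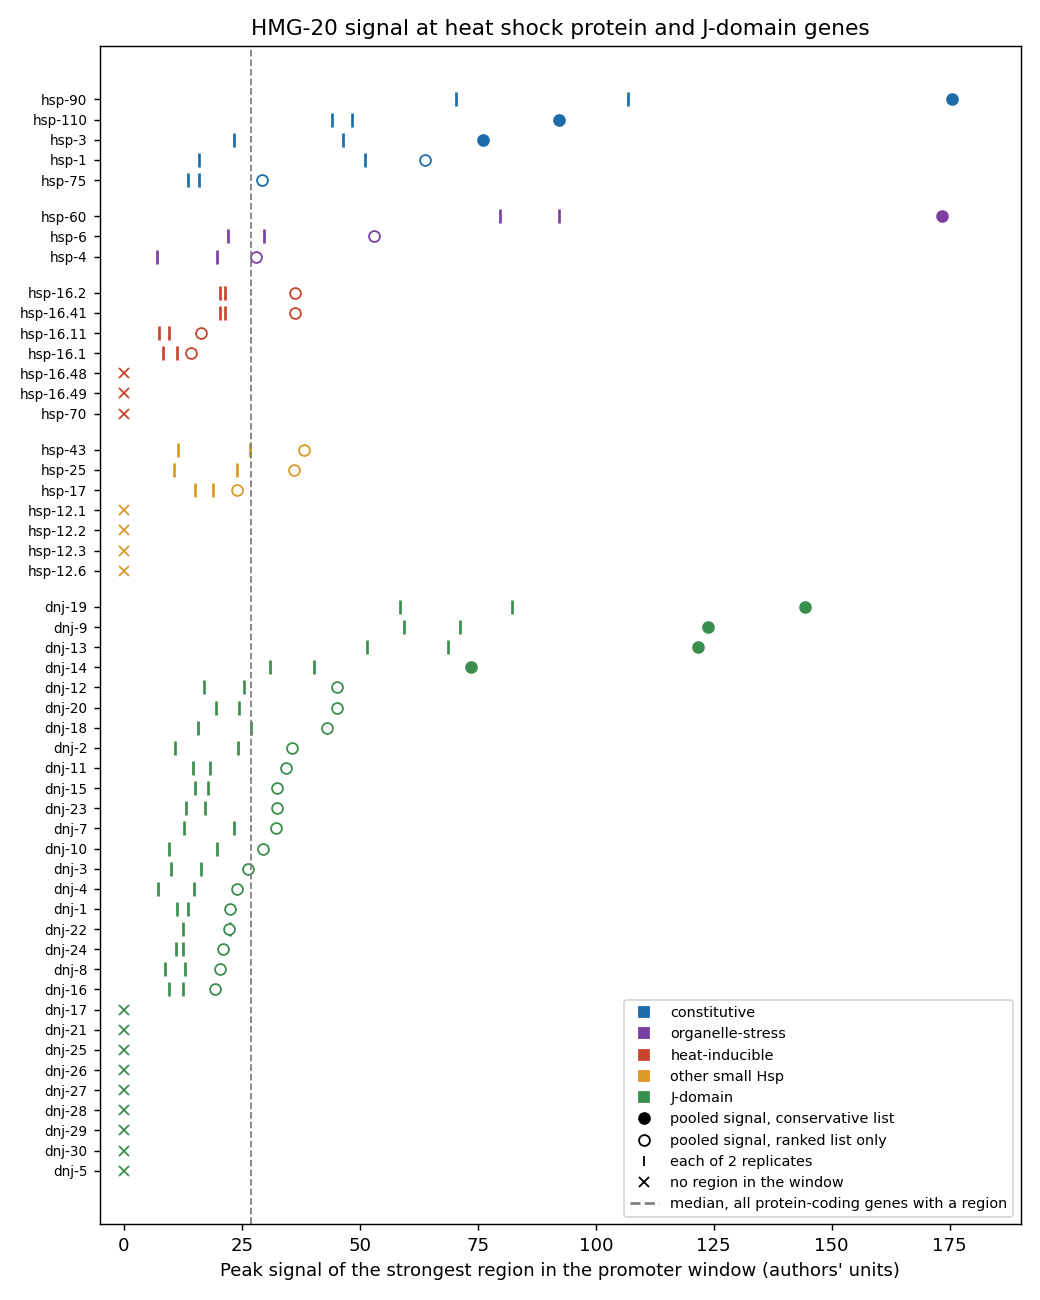
Peak signal (authors' units) of the strongest ranked region in the promoter window of each of the 51 genes, by class. Circles are the pooled signal, filled where the region is in the conservative list, ticks are the 2 replicates, crosses are genes with no region, and the dashed line is the median of 26.97 over protein-coding genes with a region. The filled circles, at 73.5 and above, are in the constitutive, organelle-stress and J-domain classes.

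Cytosolic Hsp90 stood highest of the members. The region of hsp-90 (WBGene00000915; chromosome V, 14684918 to 14688545, plus strand) had a pooled signal of 175.4, rank 88 of all nuclear regions, and replicate signals of 106.8 and 70.5 (88.6 ± 25.7, SD, n = 2). It was the highest member in the first column and stood next to hsp-60, at 79.8, in the second. The summit lay inside the gene, 843 bp downstream of its outermost 5' end and 399 bp upstream of the 5' end of a shorter transcript. It fell in the window of C47E8.4 as well, which is transcribed away from it, with a 5' end 276 bp away. With the outermost 5' end alone, hsp-90 was not among the called genes. A further 3 regions lay in its windows, at pooled signals of 44.9, 25.02 and 13.8.

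Constitutive Hsp70 machinery was divided. Hsp110 proteins act as nucleotide exchange factors of Hsp70, and the region of hsp-110 (WBGene00016250; chromosome III, 8443910 to 8446909, minus strand) had replicate signals of 48.3 and 44.2 (46.2 ± 2.89, SD, n = 2) and a pooled signal of 92.2. Its summit stood 264 bp upstream of hsp-110 and was shared with rpn-3, a proteasome subunit gene that runs the other way and begins 180 bp from it. The nearest annotated 5' end of any kind was that of the ncRNA gene C30C11.14, 78 bp away. hsp-3 (WBGene00002007; chromosome X, 6089028 to 6092124, minus strand) encodes a constitutive BiP, the Hsp70 of the endoplasmic reticulum. Its replicate signals were 46.4 and 23.4 (34.9 ± 16.3, SD, n = 2), its pooled signal was 76.0 and its score was 853, the lowest of the 8 called genes. The hsp-3 summit stood 16 bp upstream of the gene and was shared with no other gene.

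The most abundant cytosolic Hsp70, encoded by hsp-1 (WBGene00002005; chromosome IV, 17278959 to 17281330, plus strand), was not called in its promoter. Its strongest promoter region had replicate signals of 51.02 and 16.0 (33.5 ± 24.8, SD, n = 2), 3.19 times apart, and a score of 251. Within the gene, however, hsp-1 held 2 summits of the conservative list. One lay 860 bp downstream of the 5' end with replicate signals of 35.9 and 24.4 (30.1 ± 8.11, SD, n = 2). The other lay 2302 bp downstream, near the 3' end, with 37.1 and 31.1 (34.1 ± 4.21, SD, n = 2). A conservative summit inside the gene was found at 2 members, hsp-90 and hsp-1, against 1.62% of all protein-coding genes. The fifth constitutive gene, hsp-75, which encodes a mitochondrial relative of Hsp90, had replicate signals of 13.5 and 16.0 (14.7 ± 1.74, SD, n = 2) at a score of 116.

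The organelle chaperones spanned nearly the whole range. For hsp-60 (WBGene00002025; chromosome III, 1619742 to 1625803, plus strand), the mitochondrial chaperonin, the replicate signals were 92.2 and 79.8 (85.99 ± 8.76, SD, n = 2) and the pooled signal was 173.5, rank 91. That summit stood 605 bp upstream of hsp-60 and 208 bp from the 5' end of Y22D7AL.10, on its other side. The mitochondrial Hsp70 gene hsp-6 (WBGene00002010; chromosome V, 4824124 to 4826760, minus strand) had 29.7 and 22.003 (25.9 ± 5.46, SD, n = 2), with a score of 638. It was the 1 member that passed an IDR of 0.05, a score of 540, without passing 0.01, and at that looser score 9 members were called against 4.78% of all protein-coding genes. hsp-4, the BiP gene that is induced by unfolded proteins, had 19.8 and 7.02 (13.4 ± 9.07, SD, n = 2) at the lowest score in the list, 27. Between the paralogous BiP genes, hsp-3 was thus higher than hsp-4 in both replicate columns, with no test over genes.

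Heat-inducible genes ranged from no region to a signal just above the upper quartile of all genes with a region, and none was called. The divergent pair hsp-16.2 and hsp-16.41 on chromosome V encodes small heat shock proteins and shares a summit, which lies 249 bp upstream of the first and 28 bp inside the second. Its replicate signals were 20.4 and 21.4 (20.9 ± 0.651, SD, n = 2), its pooled signal was 36.3, above the upper quartile of 35.6, and its score was 370. hsp-16.11 had 9.63 and 7.48 and hsp-16.1 had 8.24 and 11.3, from summits at -884 and -945 bp from the 5' end, and both at a score of 27. hsp-16.48, hsp-16.49 and hsp-70, the last an inducible Hsp70 gene on chromosome I, had no region in the window. The nearest conservative summit was 55417 bp from the 5' end of hsp-70.

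With genes without a region set to 0, the median pooled signal was 76.0 over the 5 constitutive genes and 14.2 over the 7 heat-inducible genes, a difference of 61.8. The lower median is the value of hsp-16.1, whose window is mostly repeated sequence. In the first replicate column the medians differed by 40.0 and in the second by 15.9, the constitutive genes being higher in both. Over all 19973 protein-coding genes the same median was 15.3. Among genes with a region the constitutive range, 29.3 to 175.4, and the heat-inducible range, 14.2 to 36.3, overlapped at hsp-75. Window length differed as well, because each gene was scored over all its 5' ends. The windows covered 1201 to 2741 bp at the constitutive genes and 1201 to 1288 bp at the heat-inducible genes. With the outermost 5' end alone the medians were 63.9 and 14.2, a difference of 49.7. Under that rule 7 members were called, among them 2 of the 5 constitutive genes.

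Sequence repeats limit what the heat-inducible values can show. The intergenic sequence between hsp-16.1 and hsp-16.48, and that between hsp-16.49 and hsp-16.11, belong to an inverted duplication on chromosome V. In both, 0% of the 50-mers occurred once in the genome, and 0% of the 100-mers. No ranked summit lay in either. Over the whole promoter window the unique share was 0% for hsp-16.48 and hsp-16.49, 3.56% for hsp-16.1 and 6.86% for hsp-16.11. Under 50% unique windows occurred at 4 members, these 4, against 2.49% of all protein-coding genes, and the genome had 93.5% unique 50-mers. How the authors treated reads that map to several places is not given in the sources used here, so the lack of a region at hsp-16.48 and hsp-16.49, and the low signals of hsp-16.1 and hsp-16.11, cannot be told apart from reads that could not be placed. The other 3 heat-inducible genes, hsp-16.2, hsp-16.41 and hsp-70, had windows of 100% unique 50-mers, and 0 of the 3 were called. Over these 3 alone the median pooled signal was 36.3, in place of 14.2 over all 7, and the difference from the constitutive median was 39.7. That median is the value of the 1 summit that hsp-16.2 and hsp-16.41 share.

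One inducible pair outside the naming rule went the other way. F44E5.4 and F44E5.5 (WBGene00009691 and WBGene00009692; chromosome II) are divergent, near-identical Hsp70 genes that heat induces, and they share 1 conservative region between them. That region had replicate signals of 96.4 and 47.7 (72.0 ± 34.4, SD, n = 2) and a pooled signal of 146.0, rank 125. All 50-mers of the region itself were unique (100%). The whole promoter windows of the pair, measured as for the hsp-16 genes, held only 26.1% unique 50-mers, under the 50% mark used there. The region was in the thresholded list of each replicate alone. Counted with the heat-inducible class, it gave 2 called genes of 9, both from a single summit, and the difference between the class medians was 59.6. So of the heat-inducible chaperone genes examined, this pair was called and the 7 with an hsp- symbol were not. Among those 7, the windows of hsp-16.1, hsp-16.11, hsp-16.48 and hsp-16.49 are almost wholly repeated, so their lack of a call cannot be read. Of the rest, hsp-16.2 and hsp-16.41 share a single summit.

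**Figure D2:**
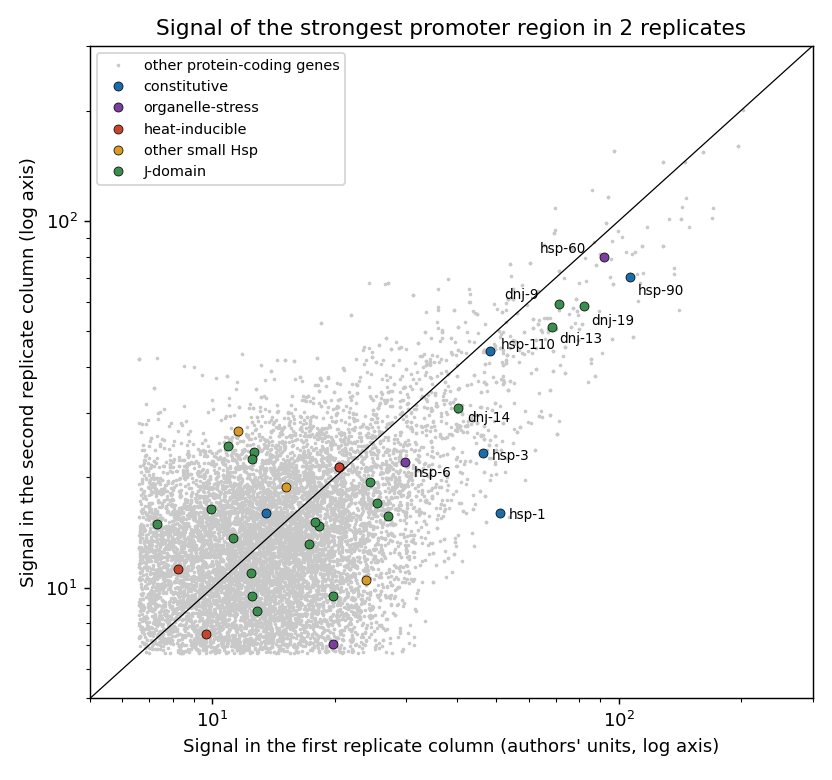
Signal of the strongest promoter region in the first and the second replicate column (authors' units, log axes), with members coloured by class over the other protein-coding genes in grey. The line marks equal signal, and the called members lie at the upper right, all 8 below the line, while hsp-1 has 51.02 in the first column and 16.0 in the second.

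Among the small heat shock proteins outside the hsp-16 family, 3 of 7 genes had a region and none was called. hsp-43 had replicate signals of 11.6 and 26.8, hsp-25 of 23.9 and 10.53, and hsp-17 of 15.2 and 18.8. At hsp-43 and hsp-25 the replicates were over 2 times apart, in opposite directions. hsp-25 has several 5' ends, with windows covering 4011 bp, and 7 ranked regions fell in them at pooled signals from 7.11 to 35.99. hsp-12.1, hsp-12.2, hsp-12.3 and hsp-12.6 had no region, although their windows were 100% unique.

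Of the J-domain genes, 4 of 29 were called, 16 had a region below the list and 9 had none. dnj-19 (WBGene00001037; chromosome V, 5503033 to 5504857, minus strand) encodes a cytosolic J-domain protein of class A. Its replicate signals were 82.4 and 58.5 (70.4 ± 16.9, SD, n = 2) and its pooled signal was 144.4. Its summit stood 379 bp upstream but 17 bp from the 5' end of the nuclear hormone receptor gene nhr-47. dnj-9 (WBGene00001027; chromosome II, 4852056 to 4857820, plus strand) had 71.2 and 59.3 (65.2 ± 8.40, SD, n = 2) from a summit 209 bp upstream that no other gene shared.

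dnj-13 (WBGene00001031; chromosome II, 11545701 to 11547360, plus strand), a cytosolic class B partner of Hsp70, had 68.7 and 51.5 (60.1 ± 12.15, SD, n = 2). That summit stood 203 bp upstream and was shared with F54D5.9. dnj-14 (WBGene00001032; chromosome X, 4709741 to 4711748, minus strand) encodes the cysteine string protein of synaptic vesicles and had 40.2 and 31.0 (35.6 ± 6.51, SD, n = 2). In all 4 genes the first column was the higher. The cysteine string protein gene had the lowest pooled signal of the 8 called members, 73.5, and its summit, 298 bp upstream, was shared with glit-1.

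Below the list the J-domain genes ran from 19.3 at dnj-16 to 45.2 at dnj-12, with a median of 30.8 and scores of their strongest regions from 27 to 412. dnj-12, another class A gene of the cytosol, had replicate signals of 25.4 and 17.1 (21.2 ± 5.87, SD, n = 2). dnj-20, whose product works in the endoplasmic reticulum, had 24.5 and 19.4 (21.96 ± 3.57, SD, n = 2) at a score of 412. A weaker region in its windows, with a pooled signal of 40.97, had a score of 516. dnj-18 had 27.0 and 15.7 (21.4 ± 7.98, SD, n = 2). Neither dnj-27, also of the endoplasmic reticulum, nor dnj-21, of the mitochondrial import motor, had any region. The members without one had their nearest ranked summit 242 to 9807 bp from a 5' end.

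**Figure D3:**
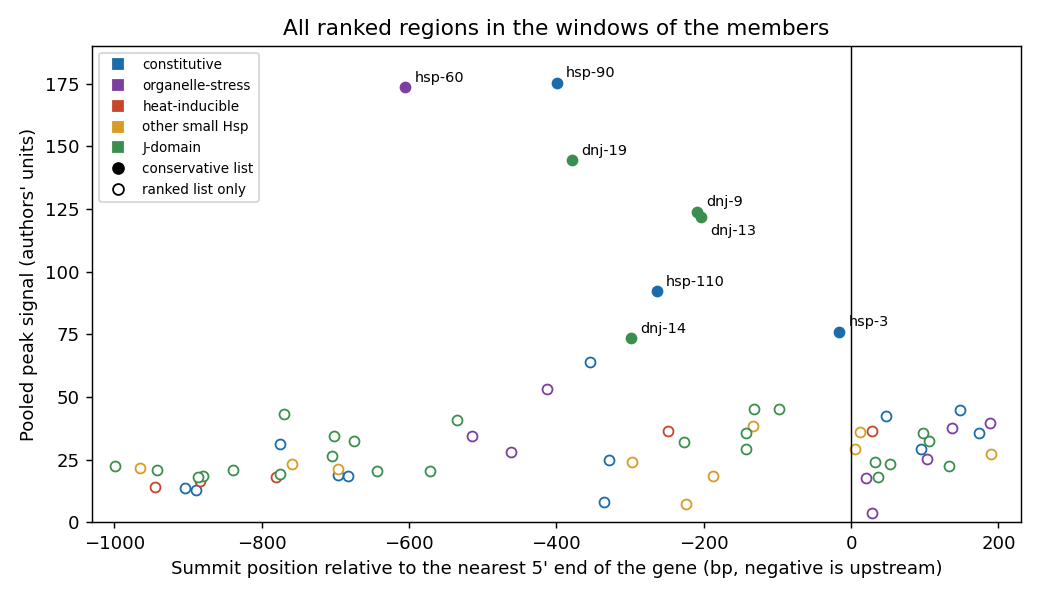
Pooled signal (authors' units) of each ranked region in a member's window against the position of its summit relative to the nearest 5' end of the gene (bp, negative is upstream). Filled circles are regions in the conservative list, and all 8 lie upstream, from 605 bp at hsp-60 to 16 bp at hsp-3.

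The called summits lay upstream of a 5' end at all 8 genes, at hsp-90 only of a shorter transcript. Their median position was -281 bp, against -322 bp for the strongest regions of all protein-coding genes with a region. The window reaches 1000 bp upstream and only 200 bp downstream, so it favours upstream summits. Most called summits were shared. At 6 of the 8 called members another protein-coding gene had the same summit in its window, against 49.1% of all called protein-coding genes. The partners were C47E8.4 for hsp-90, rpn-3 for hsp-110, Y22D7AL.10 for hsp-60, nhr-47 for dnj-19, F54D5.9 for dnj-13 and glit-1 for dnj-14. The 2 unshared summits were those of hsp-3 and dnj-9. Over the 35 members with a region, 17 strongest summits were shared with a gene of any class (34.1% of protein-coding genes with a region) and 14 with a protein-coding gene (22.4%). The 1 summit shared between members was that of hsp-16.2 and hsp-16.41, so the 35 genes had 34 different strongest summits. Of the 8 called members, 3 had the nearest protein-coding 5' end (dnj-9, dnj-13 and hsp-3), and 2 had the nearest 5' end of any class (dnj-9 and hsp-3). At the other 5 the summit lay nearer to a neighbour, and which gene it serves was not tested. No share over all called protein-coding genes is given beside these counts, so they cannot be called particular to the members.

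**Figure D4:**
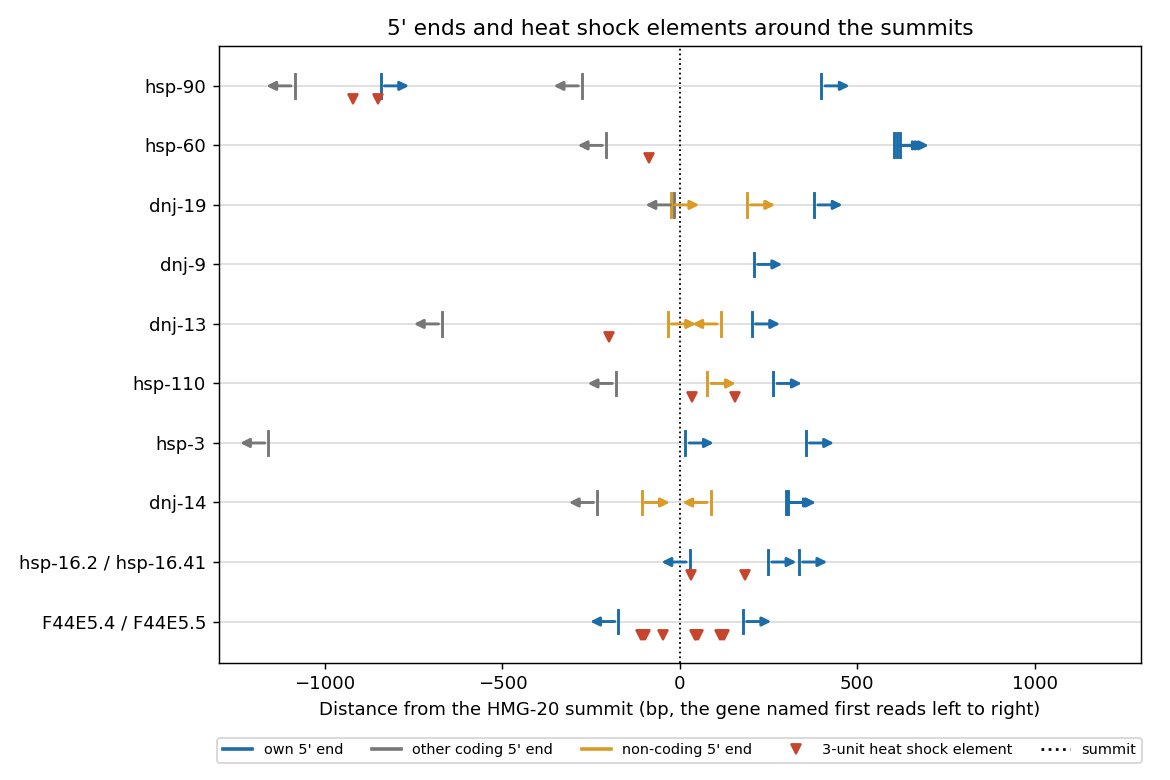
Annotated 5' ends (arrows in the direction of transcription) and heat shock elements of 3 units (triangles) by distance from the HMG-20 summit in bp, for the 8 called members and 2 inducible pairs. The summits of hsp-90, hsp-60, dnj-19, dnj-13, hsp-110 and dnj-14 stand between 5' ends that point away from each other, and 10 elements surround the summit between F44E5.4 and F44E5.5.

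The replicates gave the calls different support. Of the 8 called genes, hsp-90, hsp-60, dnj-19, dnj-9 and dnj-13 were also in the thresholded list of each replicate alone, and hsp-110, hsp-3 and dnj-14 were in neither. The lists of single replicates are shorter in general. They held 349 protein-coding genes in replicate 1 and 312 in replicate 2, against 625 in the conservative list. How many of those 625 were in both single lists or in neither is not given here. The split among the 8 therefore cannot be called particular to the members. In all, 6 members were in the list of replicate 1 (1.75% of protein-coding genes) and 5 in that of replicate 2 (1.56%). The sixth in replicate 1 was hsp-1. In the other thresholded list of the series 8 members were called as well (3.13%), with hsp-1 in place of hsp-3. The first replicate column was the higher at 23 of the 35 members with a region, and at 5932 of the 10906 protein-coding genes with a region. It was the higher at 8 of 8 called members, for which no share over all called protein-coding genes is given. Replicate signals were over 2 times apart at 7 of the 35 members, against 1594 of the 10906.

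Heat shock elements were described in the sequence independently of the peaks. A run of 3 units is GAANNTTC followed by NNGAA, or its reverse complement, TTCNNGAA followed by NNTTC. Such a run lay within 1000 bp upstream and 200 bp downstream of the outermost 5' end at 15 members, against 7.68% of all protein-coding genes in windows of the same length. The members were 7 of 7 heat-inducible genes, 3 of 5 constitutive genes (hsp-1, hsp-90 and hsp-110), 2 of 3 organelle-stress genes (hsp-6 and hsp-60), 3 of 29 J-domain genes (dnj-12, dnj-13 and dnj-24) and 0 of 7 other small heat shock protein genes. The 6 hsp-16 genes are 3 divergent pairs that share their elements. A shorter match of 2 units was in 44 members and in 79.9% of all windows. From 250 bp upstream to 50 bp downstream, 11 members had 3 units, against 1.98% of all.

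These elements and the called summits did not coincide as a rule. Of the 8 called members 4 had an element of 3 units in the window of the outermost 5' end, and of the 43 others 11 had one. Calls used the windows of all 5' ends, and the called summit of hsp-90 lay outside the window searched for elements. Of all 625 called protein-coding genes 48 had one, 7.68%, the same share as over all genes. The distance from summit to element was 33 bp at hsp-110, 86 bp at hsp-60 and 200 bp at dnj-13. At hsp-90 both elements lay 852 bp or more from the summit, near the outermost 5' end. At hsp-16.2 and hsp-16.41 an element lay 31 bp from their uncalled summit. That element crosses the start of hsp-16.41, so the printed intergenic sequence ends within it, and the other element of the pair lay 185 bp from the summit. A match is a description of letters and no evidence of binding by any factor.

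Other genes of the chaperone network were taken from a list of 30 regulators, co-chaperones and unnamed Hsp70 genes. One entry, trap-1, may name a translocon-associated protein rather than a chaperone. It is counted, with a ranked region and no call. Of the 30 genes, 26 had a ranked region and 6 were in the conservative list, against 3.13% of all protein-coding genes. Besides F44E5.4 and F44E5.5 they were bag-1, sti-1, enpl-1 and atfs-1. bag-1, a nucleotide exchange factor of Hsp70, had replicate signals of 51.8 and 44.4 (48.1 ± 5.25, SD, n = 2). sti-1 links Hsp70 to Hsp90 and had 31.3 and 29.2 (30.2 ± 1.49, SD, n = 2). enpl-1, the Hsp90 of the endoplasmic reticulum, had 29.7 and 35.2 (32.4 ± 3.91, SD, n = 2), from a summit shared with imp-2. atfs-1, the transcription factor of the mitochondrial unfolded protein response, had 36.9 and 32.4 (34.6 ± 3.12, SD, n = 2). No region lay in the windows of hsf-1, ddl-2, ubl-5 and haf-1, of which hsf-1 encodes the heat shock transcription factor.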

How the data were processed

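HMG-20 chromatin immunoprecipitation sequencing of 2 replicates was analysed from deposited peak lists on ce11, which has the WBcel235 coordinates. No region lay outside the chromosomes (0 regions). Per the labels, fragments were made by sonication. Neither aligner nor peak caller is named in the labels, and read depth is unknown. The deposited signal is the authors' peak height. The deposited score is the authors' scaled IDR, and the deposited −log10 column holds the global IDR. Summit offsets were used as deposited.

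Genes came from Ensembl release 115. It gives 2 genes the symbols of their copies, so hsp-16.11 and hsp-16.49 were named from RefSeq by WormBase identifier. RefSeq gives an hsp- or dnj- symbol to 3 further genes, which the rule leaves out. Mitochondrial regions were left out. Unique 50-mers and motifs were computed from the RefSeq genome. The named genes were every called member, every member of the constitutive, organelle-stress and heat-inducible classes, members that share a summit with another member, the 5 next by signal, members with no region and called pathway genes. The members, classes and lists were chosen with earlier results of these data known. No test was made over genes. The assignment of summits to windows was tested on simulated data. Alternatives were the list, the replicate, the window, the 5' ends, the nearest gene, the region and the classes. The counting of F44E5.4 and F44E5.5 as heat-inducible and of summits inside genes was added after seeing the data. Python 3.11.15, NumPy 2.4.6, pandas 2.3.3 and matplotlib 3.10.9 were used.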

Additional observations from a re-analysis of the deposited data

How the results depend on the processing

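Of 81 recomputed values, 69 stayed within 1.5 times the count, or within 37.8 signal units of the difference between class medians. That allowance is wide, being the relative SD of the 2 replicate columns applied to the difference of 61.8, and the difference ran from 15.9 to 76.0. Differences from the replicate columns and the single-replicate lists were held against the pooled difference, so this comparison mixes scales. The lowest, 15.9, is on the lower scale of the replicate values. The highest, 76.0, arose where the heat-inducible median was 0. The difference between class medians kept its direction in all 21 of its alternatives. The other results are counts, which have no direction to change. The list of each replicate alone called 5 to 6 members, 1 to 2 constitutive genes and 0 heat-inducible genes, and the ranked list of each alone held regions at 31 to 33 members with a median difference of 31.7 to 48.3 on their own scale. When a summit counted for the nearest gene of any class alone, 2 members and 1 constitutive gene were called, and with the nearest protein-coding gene alone 3 members and 1 constitutive gene. The called count of the members thus depends on letting neighbours share a summit. Of all called protein-coding genes, 49.1% shared their strongest summit with another protein-coding gene. No share over all protein-coding genes is given for the window, 5' end and nearest-gene alternatives. Their counts therefore cannot be called particular to the members. With 2000 bp upstream, 1 heat-inducible gene was called (hsp-16.49, from a summit 1798 bp upstream) and 27 members shared their strongest summit. With the organelle-stress genes counted as inducible, 1 of 10 was called, and with F44E5.4 and F44E5.5, an alternative chosen after seeing the data, 2 of 9. With dnj-12, dnj-13 and dnj-19 counted as constitutive, 5 of 8 were called. The second replicate column alone gave a median difference of 15.9. On the pooled scale the difference of 61.8 was 39.7 with 2000 bp upstream or without the windows of repeated sequence, and 30.8 with the region nearest to a 5' end. Read depth is unknown, so which weak regions pass the threshold may depend on it. No paired analysis was possible because there is 1 group.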

Other observations

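Base composition differed between called and uncalled summits of these genes. Within 50 bp of the summit on each side the median GC content was 55.4% at the 8 called members and 41.6% at the members with a region below the list. Over the series it was 49.5% at conservative regions and 41.6% at the other ranked regions. Among called members hsp-3 had 64.4% and hsp-110 had 35.6%, below the median of uncalled regions. Among uncalled ones hsp-6 had 60.4%, hsp-25 had 57.4%, and hsp-16.11 and hsp-16.1 had 26.7% and 25.7%.

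A 3-unit heat shock element lay inside 2 of the 8 called regions of members (hsp-60 and hsp-110), against 2.25% of the 979 conservative regions and 1.41% of the other 58117 ranked regions.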
